A study of Homo sapiens with 21 samples.

Results

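The genes described here encode the MHC class I molecule and the machinery that loads it with peptide. They are 9 of the 58174 gene identifiers in each library, taken by symbol, with earlier results of these data known. Of these, HLA-B, HLA-C, HLA-E and HLA-F encode heavy chains, B2M the light chain, TAP1 and TAP2 the peptide transporter, TAPBP the loading chaperone tapasin, and NLRC5 the transactivator of class I promoters. Poly(A) RNA had been sequenced from 21 libraries of OCI-AML5, a human acute myeloid leukemia cell line, in 7 groups of 3. UM171 is a small molecule used to expand human hematopoietic stem cells ex vivo, and DMSO is its vehicle. The control cells were labelled as kept in DMSO for 72 h, or exposed to UM171 for 6, 24, 48 or 72 h. The other groups came from clones carrying sgEPCR, a guide against PROCR, the gene of the endothelial protein C receptor EPCR, and were kept in DMSO or UM171 for 24 h. Their labels call the genotype both EPCR null and EPCR knockdown. The labels give 500 nM as the dose of UM171 in every treated group, whereas the study's own legends give a lower one for these exposures, so the dose is uncertain. The study made independent sgEPCR clones, but which library came from which clone or guide is not in the labels, and the labels name no guide in the control cells. No label says that libraries of a group came from separate cultures, so p-values measure the spread between libraries, which may be technical. Because the control DMSO libraries are labelled 72 h and the sgEPCR DMSO libraries 24 h, genotype and time in DMSO cannot be told apart between them. For the same reason UM171 and time in culture cannot be told apart at 6, 24 and 48 h in control cells, whose DMSO libraries are labelled 72 h.

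Class I molecules carry peptides made by the proteasome to the cell surface, where CD8+ T cells read them and NK cells sense the molecule itself. Peptides are pumped into the endoplasmic reticulum by the TAP1 and TAP2 dimer, tapasin holds the empty molecule next to the pump, and no classical class I molecule reaches the surface stably without B2M. Class I genes respond to interferon through IRF and STAT factors and to inflammatory signals through NF-kB, and NLRC5 acts on their promoters through a complex with RFX, NF-Y and CREB family factors. HLA-B and HLA-C are classical heavy chains, whereas HLA-E, a ligand of inhibitory NK receptors, and HLA-F are non-classical.

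Libraries held 24.3 to 51.5 M counts. The cells were labelled as a myeloid line, and of 6 listed myeloid genes 4, PTPRC, CD33, SPI1 and CSF2RA, were at 1 TPM or more in every library, while MPO reached at most 9.08 TPM and ANPEP 1.14. TPM, transcripts per M, is a level per length and per library. In 2 libraries, sgEPCR DMSO replicate 1 and sgEPCR UM171 replicate 2, mitochondrial genes took 35.9% and 32.2% of the counts, whereas the other 19 had 7.73% to 13.5%. Counts and changes in sgEPCR cells are therefore given with and without both.

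Each gene was placed on GRCh38 by the GENCODE annotation, and 7 of the 9 lie in the MHC on chromosome 6. HLA-F (ENSG00000204642) lies at chr6:29722775-29738528 on the plus strand, HLA-E (ENSG00000204592) at chr6:30489509-30494194 (plus), HLA-C (ENSG00000204525) at chr6:31268749-31272130 (minus) and HLA-B (ENSG00000234745) at chr6:31353872-31367067 (minus). TAP2 (ENSG00000204267) at chr6:32821833-32838739 and TAP1 (ENSG00000168394) at chr6:32845209-32853816, both on the minus strand, flank the immunoproteasome gene PSMB8, and TAPBP (ENSG00000231925) lies at chr6:33299694-33314284 (minus). B2M (ENSG00000166710) lies outside the MHC at chr15:44711358-44718851 (plus), as does NLRC5 (ENSG00000140853) at chr16:56989485-57083531 (plus). PSMB9, the neighbour of TAP1, spans chr6:32844136-32859851 on the opposite strand and covers it in the annotation. The kit was stranded, but whether the counting used strand is not given in the sources used here, so reads of TAP1 and PSMB9 may not be fully separated.

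The promoters are shown as a description of sequence, and their part in the changes was not tested. RefSeq windows of GRCh38.p14, from 250 bases before to 50 bases after a start, were given for 7 of the 9 genes. Each window was searched on both strands for GGGNNTTCC (NF-kB type), AANNGAAA (IRF type), CCAAT (the NF-Y box), for GGGCGG (GC box) and for TGACG (the core of a CRE), and matches may overlap. The letters below are the 250 bases before the start, 5′ to 3′ on the gene's strand, with every match in capitals. They are the reference sequence and not that of the HLA alleles of this line. The windows printed lie at chr6:31357180-31357429 (HLA-B), chr6:31272093-31272342 (HLA-C), chr6:29723184-29723433 (HLA-F), chr15:44711267-44711516 (B2M), chr6:32853705-32853954 (TAP1), chr6:32853942-32854191 (PSMB9) and chr6:32838740-32838989 (TAP2).
HLA-B: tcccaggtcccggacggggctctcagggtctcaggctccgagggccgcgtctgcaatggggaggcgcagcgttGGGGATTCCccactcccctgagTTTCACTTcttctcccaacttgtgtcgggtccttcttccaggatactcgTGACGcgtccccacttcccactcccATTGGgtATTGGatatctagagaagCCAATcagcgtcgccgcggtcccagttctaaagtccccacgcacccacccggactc
HLA-C: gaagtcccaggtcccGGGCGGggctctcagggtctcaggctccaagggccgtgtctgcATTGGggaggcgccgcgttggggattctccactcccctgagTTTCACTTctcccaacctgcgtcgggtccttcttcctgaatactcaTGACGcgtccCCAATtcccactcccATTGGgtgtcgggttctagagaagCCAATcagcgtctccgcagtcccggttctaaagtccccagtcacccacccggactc
HLA-F: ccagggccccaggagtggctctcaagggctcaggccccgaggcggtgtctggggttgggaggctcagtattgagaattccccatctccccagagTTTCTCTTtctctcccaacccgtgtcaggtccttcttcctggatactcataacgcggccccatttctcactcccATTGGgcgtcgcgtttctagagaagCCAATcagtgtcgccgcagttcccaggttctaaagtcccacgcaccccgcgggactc
B2M: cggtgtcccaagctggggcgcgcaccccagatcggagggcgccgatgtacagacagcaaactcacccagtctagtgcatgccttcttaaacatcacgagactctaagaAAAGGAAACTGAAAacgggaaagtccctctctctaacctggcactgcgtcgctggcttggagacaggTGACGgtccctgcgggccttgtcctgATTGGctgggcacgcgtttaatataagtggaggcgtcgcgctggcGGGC
TAP1: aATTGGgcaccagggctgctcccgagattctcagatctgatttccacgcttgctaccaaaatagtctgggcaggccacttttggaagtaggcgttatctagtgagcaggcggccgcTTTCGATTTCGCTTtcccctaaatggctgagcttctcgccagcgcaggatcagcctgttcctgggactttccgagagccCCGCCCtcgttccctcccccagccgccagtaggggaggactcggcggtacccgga
PSMB9: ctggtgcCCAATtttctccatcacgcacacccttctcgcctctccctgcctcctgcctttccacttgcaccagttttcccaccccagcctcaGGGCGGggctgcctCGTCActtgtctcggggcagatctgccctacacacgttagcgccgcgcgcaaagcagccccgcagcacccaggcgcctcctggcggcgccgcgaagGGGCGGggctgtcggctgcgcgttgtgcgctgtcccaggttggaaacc
TAP2: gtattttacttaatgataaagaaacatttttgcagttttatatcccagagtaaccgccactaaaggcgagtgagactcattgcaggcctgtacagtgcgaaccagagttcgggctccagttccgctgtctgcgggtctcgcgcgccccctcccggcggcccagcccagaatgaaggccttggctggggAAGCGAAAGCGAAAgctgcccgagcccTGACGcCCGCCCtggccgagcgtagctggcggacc

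A match to the IRF type letters was present in a window of all 7 genes, against 22.853% of the 34796 distinct windows in the table. It lay 151 to 156 bases before the start in HLA-B, HLA-C and HLA-F. B2M, TAP1, TAP2 and TAPBP each held 2 such matches that overlap each other. The NF-kB type letters, found in 6.552% of all windows, lay 177 bases before the start of HLA-B, 55 before that of TAPBP and 4 before that of B2M, where the match runs past the start. HLA-C and HLA-F lacked those exact letters. Longer forms of the NF-kB type were not searched for. The TAP1 window holds gggactttcc and the B2M window its complement, ggaaagtccc, both left in lower case. CCAAT or its complement was in the windows of HLA-B, HLA-C, HLA-F, B2M and TAP1, against 34.619% of all windows, and TGACG or its complement was in those of HLA-B, HLA-C, B2M and TAP2, against 24.494%. The TAP1 and PSMB9 windows overlap at their far ends, as those genes are transcribed away from each other. The PSMB9 window held no IRF type match. A match is a description of letters and was not tested as a site.

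Expected counts, in which RSEM splits reads that fit several genes, were large for all but 1 gene. B2M had 18540 to 70995 counts per library and HLA-B 3434 to 33469, whereas HLA-F had 29.0 to 589. Class I heavy chain genes resemble each other and differ between people, so reads can be shared among them or lost against the reference. The posterior SD that RSEM gave for this sharing was at most 0.271% of the count for HLA-B, 0.263% for HLA-C, 0.110% for HLA-E, 0.479% for HLA-F and 1.65% for TAP2, and it does not cover reads that failed to align. All 9 genes passed the filter on low counts in both fits.

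In DMSO, B2M was the most abundant of the 9 genes at 2110 ± 253 TPM (SD, n = 3). HLA-B stood at 1108 ± 153 TPM, HLA-C at 316 ± 18.3, HLA-E at 148 ± 13.0 and HLA-F at 7.30 ± 0.185. The transporter and chaperone were lower than the classical chains, with TAP2 at 62.8 ± 12.2 TPM, TAPBP at 48.7 (range 46.8 to 51.6) and TAP1 at 14.1 ± 1.25. NLRC5 was at 10.7 ± 1.51 TPM. In bulk RNA a lower level in each cell cannot be told apart from fewer cells that carry the transcript.

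**Figure D1:**
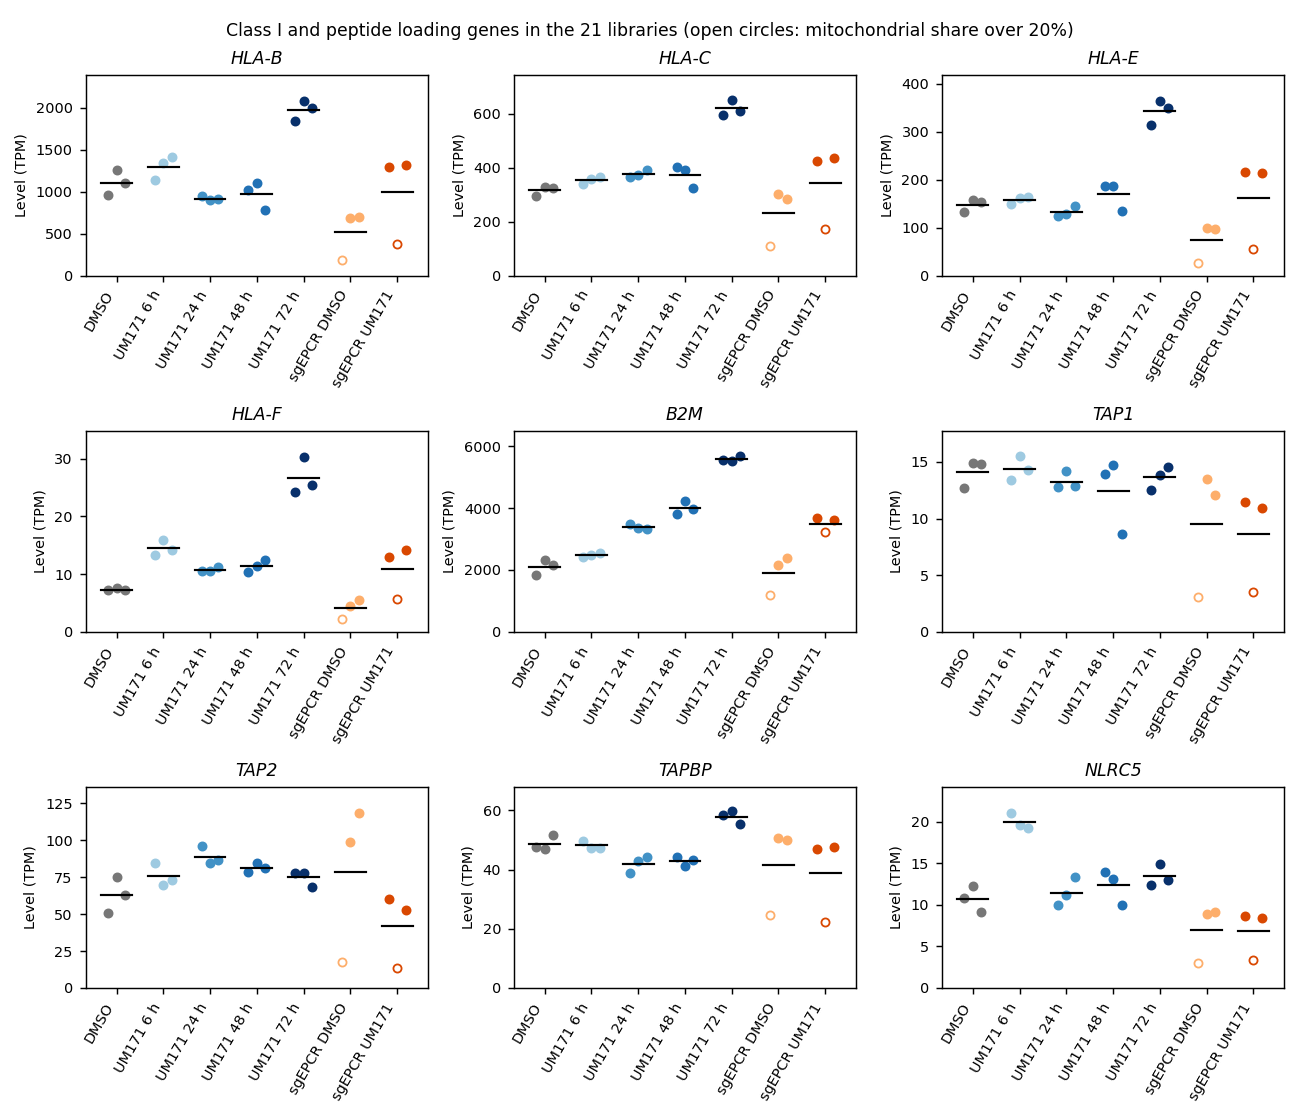
Level in TPM (y axis) of each gene in the 21 libraries by group (x axis), with a line at the mean of 3 libraries and open circles for both libraries with a mitochondrial share over 20%. At 72 h all 3 libraries of HLA-B, HLA-C, HLA-E, HLA-F and B2M lay above those of every other group, and each open circle was the lowest value of its group.

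Over the UM171 time course the heavy chains and B2M ended higher, but along different paths. B2M had risen by 24 h and went on rising, whereas HLA-B and HLA-E first fell at 24 h and rose late. HLA-F and NLRC5 rose at 6 h, and NLRC5 then came back close to its DMSO level. TAP1 did not pass the test at any time, with log2 fold changes between -0.16 and -0.10. Tests are those of edgeR's quasi-likelihood model with Benjamini-Hochberg adjustment over 16575 genes, fitted to 15 libraries. A gene counts as changed at an adjusted p under 0.05. Each time point was compared with the same 3 DMSO libraries, so the comparisons are not independent of each other.

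The share of all genes that changed was high in each comparison, so counts over the 9 genes are read against it. At 6 h, 3 of 9 had changed, against 62.1% of all genes, and 2 of them rose, against 31.8%. At 24 h, 8 of 9 had changed, against 69.7%, and 5 rose, against 34.9%. At 48 h, 6 of 9 had changed, against 72.1%, and all 6 rose, against 37.1%. At 72 h, 8 of 9 had changed, against 75.6%. All 8 changes at 72 h were rises, whereas 38.8% of all genes rose and 36.8% fell. The median log2 fold change of the 9 genes was -0.02 at 6 h and 0.18 at 24 h, then 0.25 at 48 h before it reached 0.77 at 72 h, and that of all genes was 0.02, -0.01, 0.00 and 0.02.

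HLA-B, the most abundant heavy chain, was at 958, 1263 and 1102 TPM in DMSO, at 950, 896 and 909 at 24 h, and at 1844, 2084 and 1993 at 72 h. The 24 h libraries lay just below DMSO and the 72 h libraries far above it, with no overlap in either case. On the log2 scale HLA-B fell by 0.28 ± 0.07 (SE) at 24 h (edgeR adjusted p = 0.00227) and rose by 0.77 ± 0.07 at 72 h (adjusted p = 2.92e-08). At 6 h the difference was 0.03 ± 0.07 and at 48 h -0.13 ± 0.07, neither past the threshold. In order of level the 24 h, 48 h, DMSO and 6 h groups each overlapped with the next, and the 72 h group stood apart.

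HLA-E followed HLA-B, with a larger late rise. It was at 133, 157 and 154 TPM in DMSO, at 125, 128 and 145 at 24 h, at 187, 186 and 134 at 48 h and at 314, 364 and 348 at 72 h. The 24 h and 48 h libraries overlapped with DMSO in TPM, and those of 72 h did not. HLA-E fell by 0.27 ± 0.06 at 24 h (adjusted p = 0.000447), rose by 0.22 ± 0.06 at 48 h (adjusted p = 0.00257) and rose by 1.19 ± 0.06 at 72 h (adjusted p = 4.45e-12).

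HLA-C did not share the dip at 24 h. Its levels were 295, 329 and 323 TPM in DMSO, 364, 371 and 390 at 24 h and 596, 650 and 610 at 72 h, with no overlap between any of these groups. It rose by 0.21 ± 0.04 at 24 h (adjusted p = 0.000111), by 0.26 ± 0.04 at 48 h (adjusted p = 8.94e-06) and by 0.90 ± 0.04 at 72 h (adjusted p = 9.67e-13). The ratio of HLA-B to HLA-C in TPM was 3.50 ± 0.305 in DMSO and 2.45 ± 0.142 at 24 h, and it was 3.19 ± 0.0881 at 72 h. The effective length in the tables was 601 to 699 bases for HLA-B and 1054 to 1423 for HLA-C over all libraries.

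HLA-F, the rarest of these heavy chains, gave the steepest rise of the 9 genes at 72 h. It went from 7.20, 7.51 and 7.18 TPM in DMSO to 13.3, 15.9 and 14.2 at 6 h and 24.3, 30.3 and 25.5 at 72 h. Among the control groups those of 6 h and 72 h overlapped with no other. The log2 fold change was 0.74 ± 0.11 at 6 h (adjusted p = 2.09e-05), 0.48 ± 0.11 at 24 h (adjusted p = 0.000979), 0.54 ± 0.11 at 48 h (adjusted p = 0.000337) and 1.61 ± 0.11 at 72 h (adjusted p = 2.74e-10). HLA-F had the fewest counts of the 9 genes, and its length in the tables ranged from 479 to 1072 bases over all libraries, which bears on its TPM but not on the tested counts.

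B2M, which pairs with every heavy chain, climbed at each time after 6 h. It stood at 1836, 2335 and 2158 TPM in DMSO, at 3494, 3352 and 3325 at 24 h, at 3797, 4247 and 3958 at 48 h and at 5549, 5520 and 5689 at 72 h. None of these groups overlapped. The log2 fold change was 0.61 ± 0.04 at 24 h (adjusted p = 1.23e-09), 0.88 ± 0.04 at 48 h (adjusted p = 8.36e-12) and 1.25 ± 0.04 at 72 h (adjusted p = 6.70e-14). At 6 h it was -0.02 ± 0.04 (adjusted p = 0.709). That early value depends on scaling. Scaled by total count, B2M was 0.17, HLA-C 0.17 and HLA-B 0.21 higher at 6 h, all past the threshold. The median of all genes was then itself 0.20 higher.

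The proportion of light to heavy chain shifted over the course. B2M per summed HLA-B, HLA-C, HLA-E and HLA-F was 1.34 ± 0.0216 in DMSO and 1.36 ± 0.0884 at 6 h, measured as a ratio of TPM. It was 2.36 ± 0.0652 at 24 h and 2.67 ± 0.439 at 48 h, and 1.89 ± 0.118 at 72 h. Other class I heavy chain genes were not analysed here and are not in the sum. HLA-B made up 70.0% ± 1.65 of that sum in DMSO, 63.9% ± 1.53 at 24 h and 66.6% ± 0.287 at 72 h. These ratios of TPM rest on effective length, which in DMSO was 608 to 637 bases for HLA-B and 1400 to 1423 for HLA-C. Mean expected counts in DMSO were 16721 for HLA-B and 10792 for HLA-C.

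Over the time course, a change over 2-fold with an adjusted p under 0.0001, the limits of the study, was found at 72 h alone. It held for HLA-E, HLA-F and B2M, or 3 of 9, against 20.8% of all genes. HLA-C and HLA-B stayed below 2-fold, at 1.86-fold and 1.71-fold.

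**Figure D2:**
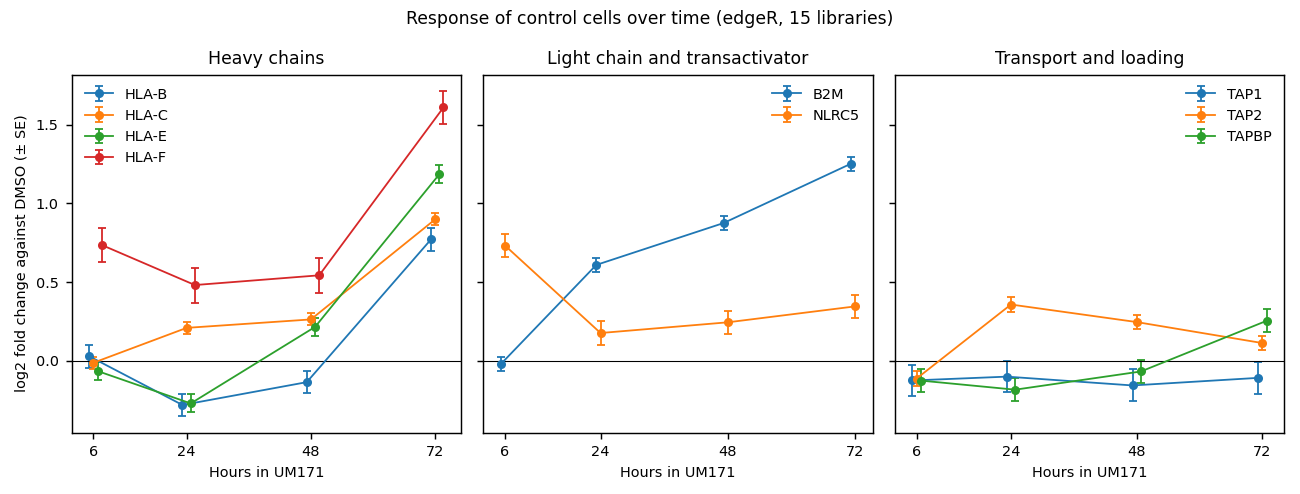
Log2 fold change against DMSO (y axis) at 6, 24, 48 and 72 h of UM171 (x axis) in control cells, with bars of 1 SE from edgeR, for heavy chains, for B2M and NLRC5, and for transport and loading genes. HLA-B and HLA-E dip below 0 at 24 h before rising at 72 h, B2M climbs from 24 h on, NLRC5 peaks at 6 h and TAP1 stays between -0.16 and -0.10.

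NLRC5 moved early. It was at 10.8, 12.2 and 9.19 TPM in DMSO and at 21.1, 19.7 and 19.2 at 6 h, without overlap. At 24 h it was back at 9.93, 11.2 and 13.3 TPM, which overlapped with DMSO, and at 72 h at 12.4, 14.9 and 13.0. The log2 fold change was 0.73 ± 0.07 at 6 h (adjusted p = 1.87e-07), 0.18 ± 0.07 at 24 h (adjusted p = 0.0407), 0.25 ± 0.07 at 48 h (adjusted p = 0.00668) and 0.35 ± 0.07 at 72 h (adjusted p = 0.000375). At 6 h, when NLRC5 was highest, HLA-B, HLA-C, HLA-E and B2M did not pass the test, and HLA-F did.

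The peptide transporter and its chaperone changed little in control cells. TAP1 had 12.7, 14.9 and 14.8 TPM in DMSO and 12.5, 13.8 and 14.6 at 72 h, and every group overlapped with its neighbours. Its log2 fold change at 72 h was -0.11 ± 0.10 (adjusted p = 0.344). The third 48 h library was lower than the rest, at 8.65 TPM. TAP2, its partner, rose by 0.36 ± 0.05 at 24 h (adjusted p = 1.90e-06) and by 0.25 ± 0.05 at 48 h (adjusted p = 0.000111), and differed by -0.11 ± 0.05 at 6 h (adjusted p = 0.0430) and 0.11 ± 0.05 at 72 h (adjusted p = 0.0319). The calls at 6 h and 72 h were lost when single libraries were left out. TAPBP fell by 0.18 ± 0.07 at 24 h (adjusted p = 0.0368) and rose by 0.26 ± 0.07 at 72 h (adjusted p = 0.00467), when its libraries were at 58.4, 59.9 and 55.6 TPM against 47.8, 46.8 and 51.6 in DMSO.

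Fewer calls passed at 24 h and 48 h in a wider fit. When all 21 libraries shared 1 fit, B2M and TAP2 alone among the 9 kept the call at 24 h. At 48 h 3 did, and at 72 h 6. Of all genes 52.3%, 56.1% and 61.4% passed at these times in that fit. Without UM171 48 h replicate 1, NLRC5 lost its call at 48 h, as did TAPBP and NLRC5 at 24 h without single libraries. The falls of HLA-B and HLA-E at 24 h also lost their call in limma on log2(TPM + 1), where 60.4% of all genes passed. They were -0.26 (limma adjusted p = 0.0829) and -0.16 (limma adjusted p = 0.254) there.

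Markers of other cell types moved over the same times. The summed level of 4 T and NK cell genes was 18.2 to 20.4 TPM in DMSO, 31.7 to 32.9 at 6 h, 37.6 to 42.6 at 24 h, 54.1 to 58.8 at 48 h and 73.8 to 77.6 at 72 h. Of them, 2 reached 1 TPM, NCAM1 and CD3D, whereas CD3E stayed at or below 0.11 TPM and CD8A below 1. The summed level of 3 B cell genes went from 9.48 to 10.4 TPM in DMSO to 35.9 to 40.7 at 48 h through CD79A alone, with MS4A1 at 0 in every library. Erythroid and epithelial genes stayed below 1 TPM. Fibroblast genes summed to at most 5.61 TPM in control cells. The part of these genes in the class I results was not tested.

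Genes that make and trim the peptides changed in both directions. Of 12 genes for peptide processing and chaperones, 4 rose and 7 fell at 6 h, 7 rose and 3 fell at 24 h, 7 rose and 4 fell at 48 h, and 5 rose and 6 fell at 72 h, where 62.1%, 69.7%, 72.1% and 75.6% of all genes changed in either direction. The list's median log2 fold change was -0.17, 0.23, 0.20 and -0.05 at these times. ERAP2, an aminopeptidase that trims peptides, gave the steepest rise of the list at each time. It went from 2.21, 2.51 and 2.19 TPM in DMSO to 13.0, 12.5 and 11.4 at 24 h, a fitted fold of 5.66 (SE 0.07 on the log2 scale, adjusted p = 5.92e-15). ERAP1, its relative, rose by 0.58 ± 0.04 at 72 h (adjusted p = 9.19e-11).

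The immunoproteasome subunits did not move as 1 group. PSMB9 was at 9.74, 11.2 and 11.7 TPM in DMSO and at 27.5, 37.2 and 33.1 at 72 h. It rose by 0.69 ± 0.10 at 6 h (adjusted p = 1.66e-05), 0.72 ± 0.10 at 24 h, 0.82 ± 0.10 at 48 h and 1.48 ± 0.10 at 72 h (adjusted p = 2.98e-10). TAP1, which starts next to it on the opposite strand, did not change by the same test at any of these times. PSMB8, which lies between TAP1 and TAP2, rose by 0.81 ± 0.05 at 24 h (adjusted p = 1.37e-10). PSMB10, the remaining inducible subunit, fell by 0.85 ± 0.07 at 48 h (adjusted p = 1.17e-08) and by 0.78 ± 0.07 at 72 h. PSME1 and PSME2, which form the proteasome activator, fell at all 4 times, by 0.38 ± 0.05 and 0.42 ± 0.06 at 72 h.

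Chaperones of the loading complex also went separate ways. PDIA3, the thiol oxidoreductase bound to tapasin, rose by 0.68 ± 0.04 at 24 h (adjusted p = 3.51e-11) and 0.74 ± 0.04 at 48 h. CALR, the lectin chaperone calreticulin, fell by 0.44 ± 0.05 at 6 h, rose by 0.28 ± 0.05 at 24 h and fell by 0.75 ± 0.05 at 72 h (adjusted p = 6.62e-10).

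Among 15 regulators of class I transcription, 2 rose and 7 fell at 6 h, 3 rose and 8 fell at 24 h, 3 rose and 5 fell at 48 h, and 6 rose and 5 fell at 72 h, against the same shares of all genes, 62.1% to 75.6%. IRF1, an interferon regulated activator, fell by 0.79 ± 0.08 at 6 h (adjusted p = 1.67e-07), the time at which NLRC5 peaked. IRF2, which binds the same kind of site, went from 11.6, 10.7 and 11.2 TPM in DMSO to 22.0, 21.4 and 20.4 at 48 h and 27.1, 27.1 and 27.2 at 72 h. IRF2 rose by 1.06 ± 0.07 at 48 h and by 1.30 ± 0.07 at 72 h (adjusted p = 1.96e-11). NFKB1 and RELA, which encode NF-kB subunits, fell at all 4 times, by 0.75 ± 0.04 and 0.54 ± 0.07 at 72 h. NFYA, the sequence specific NF-Y subunit, fell by 0.77 ± 0.04 at 72 h (adjusted p = 6.93e-12), RFXAP, a subunit of the RFX complex, rose by 0.63 ± 0.09, and RFX5 differed by 0.04 ± 0.04 (adjusted p = 0.328). These are RNA levels and not the activity of the factors.

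**Figure D3:**
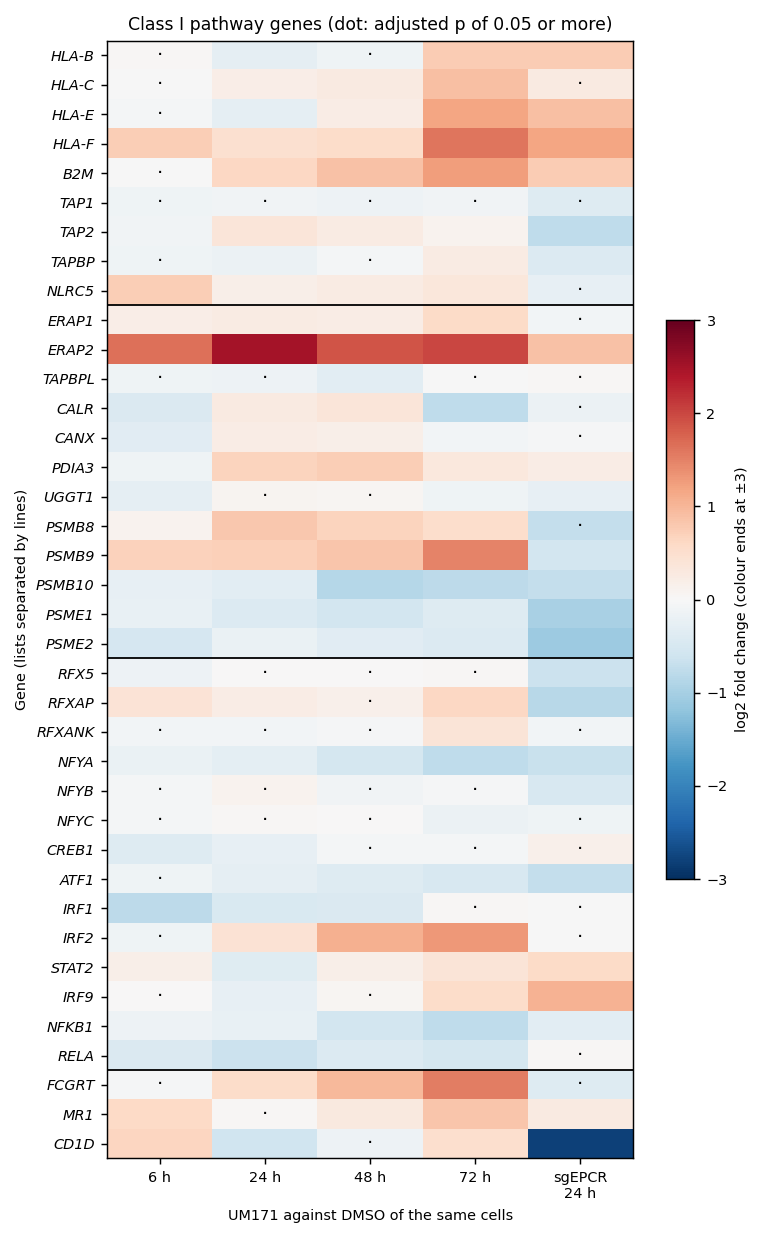
Log2 fold change (colour) of the 9 class I genes, 12 peptide processing genes and chaperones, most of the transcription regulators and the 3 other B2M partners tested (rows) at each time of UM171 and in sgEPCR cells at 24 h (columns), with a dot where the adjusted p was 0.05 or more. The 72 h column is red for the heavy chains, B2M, ERAP2, PSMB9, IRF2 and FCGRT, and the sgEPCR column is blue for TAP2, PSME1 and PSME2.

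In sgEPCR cells the targeted gene was checked first. PROCR was at 3.37, 4.30 and 3.38 TPM in control DMSO and at 48.5 TPM in each control library at 24 h of UM171. In sgEPCR cells it was at 2.30, 4.53 and 3.93 TPM in DMSO and at 8.94, 4.23 and 8.41 in UM171. Its response was 0.65 ± 0.12 in sgEPCR cells on the log2 scale, and the difference from the control response was -3.06 ± 0.17 (adjusted p = 5.77e-07). Without both libraries of high mitochondrial share these were 0.78 ± 0.10 and -2.92 ± 0.14. In DMSO PROCR was 0.42 ± 0.12 higher in sgEPCR cells (adjusted p = 0.0224), so its RNA in DMSO does not show the edit. The sgEPCR comparisons came from a fit of 12 libraries and 15901 genes, whose spread was wider than that of the time course, with a common coefficient of biological variation of 0.187 against 0.0564.

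UM171 changed 6 of the 9 genes in sgEPCR cells at 24 h, against 52.1% of all genes. The heavy chains HLA-B, HLA-E and HLA-F and the light chain B2M rose, whereas TAP2 and TAPBP fell. Without both libraries of high mitochondrial share all 9 passed the test, in a fit where 71.0% of all genes did: HLA-C also rose, and TAP1 and NLRC5 fell. Counts per M are given here after TMM scaling over all 21 libraries, whereas the test scaled its own 12 libraries after the filter. HLA-B was at 197, 323 and 321 in sgEPCR DMSO and at 570, 320 and 559 in UM171. The libraries of high mitochondrial share, DMSO replicate 1 and UM171 replicate 2, were the lowest of their groups, and leaving them out took away the overlap. HLA-B rose by 0.77 ± 0.22 (adjusted p = 0.0131), and by 0.78 ± 0.06 without them (adjusted p = 4.75e-08).

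HLA-E rose by 0.90 ± 0.23 (adjusted p = 0.00668) and HLA-F by 1.17 ± 0.29 (adjusted p = 0.00544) in sgEPCR cells, and by 0.96 ± 0.05 and 1.14 ± 0.14 without both libraries. HLA-C differed by 0.28 ± 0.20 (adjusted p = 0.262) and by 0.35 ± 0.04 without them (adjusted p = 2.32e-06). B2M rose by 0.77 ± 0.23 (adjusted p = 0.0168). Its counts per M were 1066, 764 and 829 in sgEPCR DMSO and 1174, 2191 and 1164 in UM171, so here the libraries of high mitochondrial share were the highest, not the lowest. Without them the rise of B2M was 0.53 ± 0.04 (adjusted p = 6.66e-08).

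TAP2 gave the tightest values and the opposite direction to control cells. It was at 96.9, 99.6 and 101 counts per M in control DMSO and at 125, 133 and 130 in control UM171. In sgEPCR cells it was at 149, 148 and 152 in DMSO and at 89.9, 86.4 and 89.4 in UM171. No group overlapped with another, and both libraries of high mitochondrial share lay with their group. TAP2 fell by 0.76 ± 0.06 in sgEPCR cells (adjusted p = 1.23e-06), and by 0.77 ± 0.04 without both libraries (adjusted p = 3.55e-10). In TPM both sgEPCR groups of TAP2 overlapped, at 17.7, 98.7 and 118 in sgEPCR DMSO and 60.3, 13.3 and 52.7 in UM171. The effective length that RSEM assigned to TAP2 was 5199 and 5397 bases in the libraries of high mitochondrial share and 1724 to 2778 in the others, a number that divides TPM. TAPBP fell as well, by 0.40 ± 0.08 (adjusted p = 0.00129) and by 0.32 without both libraries (adjusted p = 0.000179), from 143, 130 and 132 counts per M to 107, 95.7 and 107.

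**Figure D4:**
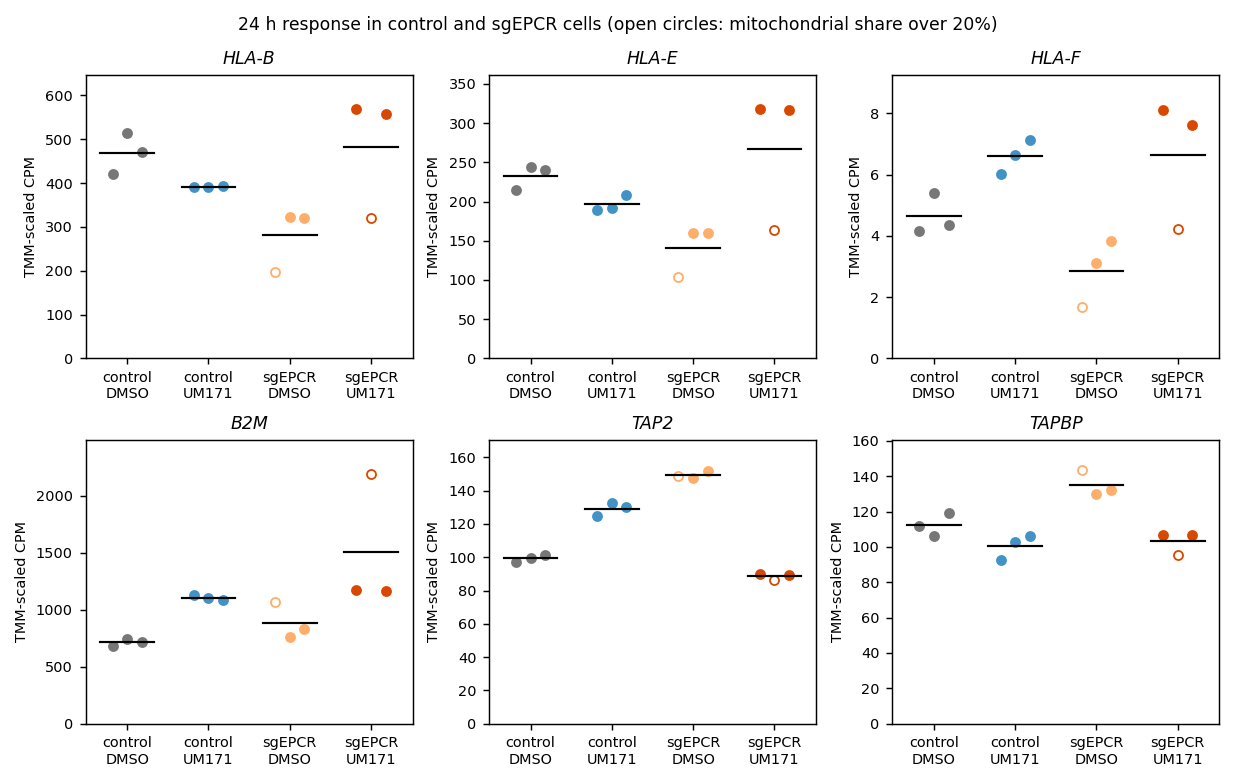
Counts per M after TMM scaling over all 21 libraries (y axis) of 6 class I genes in control and sgEPCR cells, in DMSO and at 24 h of UM171 (x axis), with a line at the mean of 3 libraries and open circles for both libraries with a mitochondrial share over 20%. The middle library of TAP2 goes from 99.6 to 130 in control cells and from 149 to 89.4 in sgEPCR cells, and HLA-B and HLA-E fall in control cells and rise in sgEPCR cells.

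Compared directly in DMSO, 4 of 9 genes differed between sgEPCR and control cells, against 33.7% of all genes, and 7 did without both libraries, against 60.3%. On the log2 scale, sgEPCR minus control, HLA-B differed by -0.74 ± 0.22 (adjusted p = 0.0243) and HLA-E by -0.72 ± 0.23 (adjusted p = 0.0311). TAP2 was higher by 0.59 ± 0.06 (adjusted p = 2.69e-05) and TAPBP by 0.27 ± 0.08 (adjusted p = 0.0218). Without both libraries HLA-B differed by -0.55 ± 0.06 (adjusted p = 1.61e-06), HLA-E by -0.55 ± 0.05 and TAP2 by 0.58 ± 0.04, while B2M was 0.15 ± 0.04 higher and HLA-F and NLRC5 were lower. Scaled by total count, none of the 9 passed in edgeR, against 25.3% of all genes, with 2 at an unadjusted p under 0.05, and the median of all genes was then -0.25.

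In UM171 at 24 h, 2 of 9 genes differed between the genotypes, against 43.0% of all genes. Both were lower in sgEPCR cells: TAP2 differed by -0.54 ± 0.06 (adjusted p = 3.03e-05) and NLRC5 by -0.81 ± 0.26 (adjusted p = 0.0260). The call of NLRC5 was lost without any 1 of the 3 control UM171 libraries (edgeR adjusted p = 0.0519, 0.0630 and 0.0702), with total count scaling (adjusted p = 0.131) and in limma (adjusted p = 0.234 to 0.334). Without both libraries of high mitochondrial share 6 differed, against 68.3% of all genes. HLA-B was then 0.52 ± 0.06 higher (adjusted p = 1.49e-06), HLA-E 0.69 ± 0.05 higher and HLA-C 0.13 ± 0.04 higher, with TAP1, TAP2 and NLRC5 lower.

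The difference of UM171 at 24 h from DMSO was not the same in both genotypes for 3 of 9 genes, tested as an interaction, against 45.0% of all genes. As the control DMSO libraries are labelled 72 h and those of sgEPCR 24 h, genotype and time in DMSO cannot be told apart here. HLA-B fell in control cells and rose in sgEPCR cells, a difference of 1.04 ± 0.31 on the log2 scale (adjusted p = 0.0188). HLA-E did the same, with a difference of 1.16 ± 0.32 (adjusted p = 0.0128), and TAP2 the reverse, with -1.13 ± 0.08 (adjusted p = 2.02e-06). Without both libraries these were 1.07 ± 0.08, 1.24 ± 0.07 and -1.12 ± 0.05, and HLA-C, HLA-F, TAP1 and NLRC5 passed as well, at 0.14, 0.67, -0.31 and -0.36, which made 7 of 9 against 69.2% of all genes. The response of B2M differed by 0.15 ± 0.33 with all libraries (adjusted p = 0.734) and by -0.08 ± 0.06 without both (adjusted p = 0.229). The 2 responses share no library, but the control libraries are also those of the time course.

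The peptide processing list stood lower in the sgEPCR response. Of its 12 genes 10 had a negative difference, sgEPCR minus control response, by the edgeR test and 2 did not pass it, where 45.0% of all genes differed in either direction. A negative difference can be a smaller rise or a larger fall. The median was -0.46 against -0.02 for all genes. Without both libraries 11 had a negative difference, where 69.2% of all genes differed. Those of PSME1 and PSME2 were then -0.49 and -0.87. PSMB9, which rose in control cells, fell by 0.55 ± 0.12 in sgEPCR cells (adjusted p = 0.00222), a difference of -1.29 ± 0.16 (adjusted p = 0.000112). PSME2 fell by 1.09 ± 0.11 and PSME1 by 0.98 ± 0.11. ERAP2 still rose, by 0.88 ± 0.12 (adjusted p = 0.000156), and the difference from control cells was -1.62 ± 0.18. As PSMB9 and ERAP2 were already higher in sgEPCR DMSO than in control DMSO, by 0.81 ± 0.12 and 0.80 ± 0.13, the responses started from different levels. Without both libraries PSMB9 fell by 0.45 ± 0.10, PSME2 by 1.08 ± 0.06 and PSME1 by 0.89 ± 0.05, ERAP2 rose by 0.79 ± 0.08, and the differences from control cells were -1.17 for PSMB9 and -1.71 for ERAP2. PSMB9 and ERAP2 were then higher in sgEPCR DMSO by 0.69 and 0.74.

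Of the 15 regulators 3 had a positive and 3 a negative difference, sgEPCR minus control response, against 45.0% of all genes in either direction. A positive difference can be a larger rise or a smaller fall. Without both libraries 5 had a positive and 7 a negative difference, against 69.2%. IRF9, the DNA binding subunit of the interferon stimulated complex, rose by 1.05 ± 0.11 in sgEPCR cells (adjusted p = 1.62e-05), where control cells showed -0.25 ± 0.08 in the time course fit. The difference was 1.29 ± 0.15 (adjusted p = 7.22e-05). STAT2, its partner, rose by 0.58 ± 0.17 (adjusted p = 0.0168). IRF1 was higher in sgEPCR cells than in control cells both in DMSO, by 0.76 ± 0.13, and in UM171, by 1.21 ± 0.13. RFXAP fell by 0.82 ± 0.13 and RFX5 by 0.65 ± 0.10 in response to UM171. Without both libraries IRF9 rose by 1.14 ± 0.10, with a difference of 1.39 ± 0.13, STAT2 rose by 0.60 ± 0.06, RFXAP fell by 1.02 ± 0.09 and RFX5 by 0.63 ± 0.04, and IRF1 was higher by 0.84 in DMSO and 1.34 in UM171.

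Marker genes of cell types also differed between the sgEPCR groups. The summed level of the 6 myeloid genes was 389 to 471 TPM in sgEPCR DMSO and 661 to 725 in sgEPCR UM171, against 759 to 781 in control DMSO and 542 to 610 in control cells at 24 h. The 3 fibroblast genes summed to at most 0.09 TPM in sgEPCR DMSO and to 4.61 to 10.1 in sgEPCR UM171, mostly PDGFRA, with COL1A1 at or below 1.31 TPM in every library of the series. T and NK cell genes summed to 29.2 to 32.9 TPM and 41.5 to 47.4, and B cell genes to 7.97 to 21.5 and 5.87 to 13.7. Both low ends of the B cell sums were libraries of high mitochondrial share, and CD79A in the others was at 21.2 and 21.4 TPM in sgEPCR DMSO and 13.5 and 12.2 in UM171. The myeloid sums hold PTPRC at 244 and 579 TPM in those libraries. Its effective length was 1119 and 1301 bases there and 3475 to 3814 in the other sgEPCR libraries. The part of these genes in the sgEPCR results was not tested.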

How the data were processed

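RSEM tables of 1 library each were analysed: the authors deposited expected counts, without normalization, and TPM, in which counts are divided by effective length and scaled to an equal total. Per the labels, reads came from a stranded poly(A) kit, and the submitters' processing notes list CASAVA 1.8.2, Trimmomatic 0.35, STAR 2.5.1b, RSEM 1.2.28 and GRCh38. The study's methods describe kallisto and sleuth for its own statistics. Summing 45 pseudoautosomal Y entries with their X copies left 58174 of 58219 entries, 57392 with a symbol. Expected counts were rounded and tested with edgeR 4.0.16 (filterByExpr, TMM, glmQLFit, glmQLFTest) in R 4.3.3, with Benjamini-Hochberg adjustment over all genes tested. The time course fit held 15 libraries and the sgEPCR fit 12, without a replicate term. The SE of a log2 fold change is its size over the square root of the F statistic. Totals of 24.3 to 51.5 M counts per library make 3 counts the smallest signal considered, which covers counting error only.

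The 9 genes, the pathway lists and the markers were chosen with earlier results of these data known. The genes named are all 9, the called genes of each pathway list with the largest change at an average log2 CPM above 1 (up to 3 a comparison), PSMB9, PROCR, and for HLA-B, B2M and NLRC5 the genes most like them. Other genes named in the text, such as ERAP1, CALR and CD1D, were added after their values were seen. Values of some genes of the lists are not reported here. Alternatives were upper quartile and total count scaling, a minimum of 10 counts per library or no filter, all 21 libraries in 1 fit, no mitochondrial genes, the replicate block, leaving out each library, DESeq2 1.42.0, limma 3.58.1 on log2(TPM + 1) or log2(TPM + 0.1), the study's limits, and leaving out both libraries with over 20% mitochondrial counts. The last, for the pathway lists, was chosen after seeing the data. The scripts were tested on simulated data. Figures used Python 3.11.15 and matplotlib 3.10.9.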

Additional observations from a re-analysis of the deposited data

Results flagged for a closer look

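The response to UM171 at 24 h differed between sgEPCR and control cells, by the interaction test, for 3 of the 9 class I genes, against 45.0% of all genes. HLA-B differed by 1.0422 on the log2 scale (edgeR adjusted p = 0.0188), falling in control cells and rising in sgEPCR cells. HLA-E, the non-classical heavy chain, differed by 1.1628 (adjusted p = 0.0128) in the same sense. TAP2, a subunit of the peptide transporter, differed by -1.1265 (adjusted p = 2.02e-06), rising in control cells and falling in sgEPCR cells. All 3 kept their call without the libraries whose mitochondrial shares were 35.9% and 32.2%, at 1.07, 1.24 and -1.12, in a fit that called 69.2% of all genes. The values of HLA-B and HLA-E lost their call with a replicate block, and no value passed in limma on log2(TPM + 1), which called 10.7% of all genes. The labelled time of the DMSO libraries, 72 h in control cells and 24 h in sgEPCR cells, cannot be told apart from genotype in these differences.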

How the results depend on the processing

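Counts of the 9 genes changed were recomputed under each alternative. At the study's limits they were 0 at 6, 24 and 48 h, 3 at 72 h (against 20.8% of all genes), 0 for the sgEPCR response, 0 and 0 for sgEPCR against control cells in DMSO and UM171, and 1 for the difference between responses. With total count scaling they were 5 at 6 h, 0 for sgEPCR against control cells in DMSO (edgeR, 2 at an unadjusted p under 0.05), 1 in UM171 and 1 for the difference between responses. Of all genes 59.5%, 25.3%, 31.4% and 33.1% passed in these comparisons. With no filter on low counts 5 passed at 6 h, against 34.7% of all genes. With all 21 libraries in 1 fit 2 passed at 24 h, 3 at 48 h and 4 for sgEPCR against control cells in UM171, against 52.3%, 56.1% and 51.3% of all genes. Without both libraries of over 20% mitochondrial counts 7 passed for sgEPCR against control cells in DMSO, 6 in UM171 and 7 for the difference between responses, while the genes called in the whole table went from 5358 to 9868, from 6844 to 11169 and from 7158 to 11328. In limma on TPM, with either pseudocount, 5 passed at 24 h, also with no filter, against 60.4%, 60.7% with the smaller pseudocount and 30.1% with no filter. For the sgEPCR response it called 2, 2 with the smaller pseudocount and 1 with no filter, against 18%, 17.5% and 10.5% of all genes. Under all 3 limma settings it called 0 for sgEPCR against control cells in DMSO (2 at an unadjusted p under 0.05), 0 in UM171 (0 unadjusted) and 0 for the difference between responses (0 unadjusted), where edgeR called 4, 2 and 3. Of all genes limma called 4.01% to 7.84%, 6.42% to 10.7% and 6.28% to 10.7% in these comparisons, and edgeR 33.7%, 43.0% and 45.0%. DESeq2 gave the same counts as edgeR in all 8 comparisons. The cause of these differences was not tested.

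Leaving out 1 library at a time gave 2 to 3 genes at 6 h, 6 to 8 at 24 h, 5 to 7 at 48 h, 7 to 8 at 72 h, 5 to 7 for the sgEPCR response, 1 to 4 for sgEPCR against control cells in DMSO, 1 to 4 in UM171 and 3 to 4 for the difference between responses. In the same order, 56.5% to 57.4%, 64.3% to 66.5%, 67.8% to 70.6% and 71.7% to 72.2% of all genes passed over the time course. In the sgEPCR comparisons 44.9% to 57%, 25.1% to 32.5%, 32.7% to 48% and 37.6% to 53% did. Of 486 single gene values with a library left out 33 lost the call, 8 gained it, 16 changed sign without a call in either fit and 0 changed sign with one. HLA-B and HLA-E in sgEPCR against control DMSO, NLRC5 in UM171, and HLA-B and B2M in the sgEPCR response, were among those that lost it. Of 810 values under other alternatives, 640 kept direction and call, 89 lost the call, 23 gained it, 42 changed sign without a call in either fit and 16 changed sign with a call in at least 1.

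The 16 that changed sign with a call were these. At 6 h with total count scaling HLA-C was 0.17, B2M 0.17 and TAP2 0.0729, and in limma B2M was 0.24 with either pseudocount and TAP2 0.28 under all 3 settings. In sgEPCR against control DMSO, limma gave TAP2 -0.0575, -0.0682 and -0.0575 and TAPBP -0.29, -0.30 and -0.29, and total count scaling gave TAPBP -0.0023. In UM171 without both libraries HLA-C was 0.13. The median of all genes moved to 0.20 at 6 h under total count scaling, and to -0.25 under total count scaling and -0.37 in limma for sgEPCR against control DMSO.

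Deviations of same-numbered libraries from their group means correlated between -0.083 and 0.078 in the time course, where replicate numbers thus showed no pairing. Between the sgEPCR groups they correlated at -0.609, -0.604 and 0.448. Both libraries of high mitochondrial share, which carry different numbers, correlated there at 0.688. As these libraries weigh on every deviation, the sgEPCR values cannot show whether the numbers pair the samples. With the replicate block, the difference between responses was called for 1 gene, TAP2, with HLA-B at 1.03 (edgeR adjusted p = 0.0790) and HLA-E at 1.14 (adjusted p = 0.0623). In the sgEPCR response HLA-B was at 0.76 (adjusted p = 0.0618) and B2M at 0.70 (adjusted p = 0.0766), and TAP2 at 6 h at -0.11 (adjusted p = 0.0623). The block was not run between genotypes.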

Other observations

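B2M also pairs with molecules outside classical class I, and those with enough counts to test rose at 72 h. Of 8 such genes listed 3 could be tested, against 38.8% of all tested genes that rose. FCGRT, the neonatal Fc receptor, rose by 1.54 ± 0.07 on the log2 scale at 72 h (edgeR adjusted p = 1.54e-12), to a mean of 234 TPM from 77.6 in DMSO. MR1, which presents metabolites to T cells, rose by 0.84 ± 0.04 (adjusted p = 9.99e-12) and by 0.60 ± 0.04 at 6 h. CD1D, a lipid presenting molecule, had 3 to 71 counts per library and rose by 0.51 ± 0.18 (adjusted p = 0.0161). Earlier, at 24 h, 1 of the 3 rose and 1 fell, against 69.7% of all genes that changed. In sgEPCR cells 1 also rose and 1 fell, against 52.1%. Without both libraries of high mitochondrial share MR1 rose there by 0.22, and FCGRT and CD1D fell by 0.32 and 3.18, against 71.0%.

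The 9 genes did not share 1 pattern over the 21 libraries. On log2 counts per M after TMM scaling, HLA-B correlated with HLA-E at r = 0.96 and with HLA-F at r = 0.913, but with B2M at r = 0.263 and with TAP2 at r = -0.524. TAP1 correlated with NLRC5 at r = 0.765. Among 15623 genes, HLA-E was among those most like HLA-B, as was H6PD at r = 0.952. The genes most like B2M were ITGB1, XRN1 and RNF13, at r = 0.975, 0.967 and 0.955, and those most like NLRC5 were FCHO1, WNT6 and C14orf93, at r = 0.947, 0.919 and 0.917. The libraries share groups of 3, depth and both sgEPCR libraries of high mitochondrial share, so these values are descriptions.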
